A study of Homo sapiens with 6 samples.

Results

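Metallothioneins are small, cysteine-rich proteins that hold zinc and copper ions in the cytosol. This account follows 7 of their genes (MT1A, MT1E, MT1F, MT1G, MT1M, MT1X and MT2A) together with MTF1, the zinc-sensing transcription factor that switches them on, and SLC30A1, the zinc exporter of the plasma membrane. The 9 genes were taken by symbol among the 58884 rows of the expression matrix. KYSE450 is a human esophageal squamous cell carcinoma (ESCC) line with wild-type NRF2. KEAP1null-KYSE450 was made from it with CRISPR-Cas9, by a guide to exon 2 of KEAP1, the adaptor through which NRF2 is marked for degradation. The edited line was grown from a single cell, so that loss of KEAP1 and clonal origin cannot be told apart. RNA-seq was carried out on 3 libraries of each line, both untreated and kept in the same serum-containing RPMI1640 medium. No label says that the libraries came from separate cultures, and the p-values then measure only the spread between libraries, which may be technical.

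When free zinc rises, MTF1 binds short metal response elements (MREs) in promoters and raises the transcription of metallothionein genes and of SLC30A1. The apo-proteins then bind the metal, and SLC30A1 carries it out of the cell. Metallothionein genes also respond to glucocorticoids and to oxidants, and antioxidant response elements (AREs), the sites bound by NRF2, occur near some of them. MT2A and the MT1 genes lie side by side on the long arm of chromosome 16.

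RefSeq promoters (GRCh38.p14) were at hand for 4 of the 9 genes, namely MT2A, MT1X, SLC30A1 and MTF1. The sequences below are the 250 bases before the annotated start, 5' to 3' on the strand of the gene, and they are shown because the motifs of the zinc sensor and of NRF2 were searched in them. Capitals mark the MRE core, searched on both strands as TGCACNC and TGCGCNC. MT1H, a relative in the same cluster, is shown because its promoter held at least as many cores while its transcript was close to 0.
MT2A, chr16:56608334-56608583 (+ strand): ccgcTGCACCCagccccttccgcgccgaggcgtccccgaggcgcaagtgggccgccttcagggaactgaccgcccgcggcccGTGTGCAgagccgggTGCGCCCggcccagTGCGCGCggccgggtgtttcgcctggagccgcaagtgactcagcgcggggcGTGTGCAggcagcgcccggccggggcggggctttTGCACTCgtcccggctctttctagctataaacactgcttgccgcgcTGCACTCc
MT1X, chr16:56682220-56682469 (+ strand): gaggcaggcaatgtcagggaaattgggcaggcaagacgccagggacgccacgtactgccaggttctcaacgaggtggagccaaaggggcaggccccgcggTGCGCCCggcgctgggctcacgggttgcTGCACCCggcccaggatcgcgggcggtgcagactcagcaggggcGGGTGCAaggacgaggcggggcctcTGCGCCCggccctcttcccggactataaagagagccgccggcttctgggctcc
SLC30A1, chr1:211579162-211579411 (- strand): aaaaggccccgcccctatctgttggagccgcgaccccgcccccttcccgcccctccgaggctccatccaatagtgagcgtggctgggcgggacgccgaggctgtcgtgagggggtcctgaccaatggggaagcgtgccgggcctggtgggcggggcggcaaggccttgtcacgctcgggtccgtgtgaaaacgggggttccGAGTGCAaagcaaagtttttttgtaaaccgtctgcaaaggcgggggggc
MT1H, chr16:56669564-56669813 (+ strand): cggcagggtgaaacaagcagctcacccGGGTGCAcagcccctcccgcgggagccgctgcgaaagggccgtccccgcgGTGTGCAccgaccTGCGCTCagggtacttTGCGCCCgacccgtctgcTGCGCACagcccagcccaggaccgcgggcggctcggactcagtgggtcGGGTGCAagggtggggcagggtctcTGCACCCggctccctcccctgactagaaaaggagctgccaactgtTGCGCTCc
Positions count backwards from the start, the base just before it being -1, and each is given for the first base of the match. The MT2A window held 7 cores, at -246, -168, -153, -139, -88, -54 and -8. The MT1X window held 4 cores, at -150, -122, -78 and -53. SLC30A1 had 1 core at -49, and MTF1 had 0. In MT1H there were 8. Among all 35116 RefSeq promoters cut to the same 250 bases, 24.8% held at least 1 core, 0.370% at least 4, 0.0313% at least 7 and 0.0171% at least 8. The ARE core, searched as TGACNNNGC on both strands, was present once in MT2A at -104, once in MT1X at -243 and once in SLC30A1 at -88. It was not found in the MTF1 or the MT1H window, and 10.9% of all promoters held at least 1. Promoters were also at hand for MT1B and MT4, relatives in the cluster whose transcripts were at 0 in every library. Each held 3 MRE cores, a number that 1.58% of all promoters reached. MT1B also held an ARE core, at -138, and MT4 held none. No MRE match overlapped an ARE match. These matches are strings of letters and show no binding.

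Summed normalized counts ran from 54829313 to 57380170 per library. One read was worth about 1 normalized count, so that 3 reads, the limit allowed by a count of 0, amounted to 2.77 to 3.21 normalized counts. This limit covers counting error only. The targeted transcript did not tell the lines apart: KEAP1 averaged 5377 ± 334 (SD, n = 3) in KYSE450 and 5320 ± 415 (SD, n = 3) in KEAP1null-KYSE450, with a log2 difference of -0.02 (limma adjusted p = 0.90) whose sign turned in 4 of 15 alternatives. The level of this transcript therefore does not check the labels. All 8 squamous markers (KRT5, KRT6A, KRT14, TP63, DSG3, SFN, PERP and CDH1) were above the limit in both lines. At a limma adjusted p under 0.05, 6 of the 8 were lower in the edited line and 2 (KRT5 and DSG3) higher. The largest falls were those of the keratins KRT14 (log2 difference -6.09) and KRT6A (-4.70). The sum of the 8, at 318997 to 429800 in KYSE450 and 578746 to 723608 in KEAP1null-KYSE450, was mostly KRT5. The 6 fibroblast markers summed to 622 to 853 and 349 to 436, nearly all of it COL1A1, with COL1A2 and DCN at or under the limit. COL1A1 was lower in the edited line (log2 difference -0.85, limma adjusted p = 7.4e-04). LUM was at 6.42, 14.2 and 14.0 in KYSE450 and at 0 in every edited library. COL3A1 reached 8.56 in KYSE450, and PDGFRB 12.9 in KEAP1null-KYSE450. The 5 leukocyte markers summed to 5.59 to 16.2 and 14.8 to 30.3. CD79A and LYZ reached 19.2 and 10.2 in KEAP1null-KYSE450, and PTPRC 8.09 in KYSE450. The 3 endothelial markers summed to 57.8 to 73.8 and 41.5 to 68.6, with PECAM1 at 0 throughout. CDH5 was at 10.7, 20.2 and 28.9 in KYSE450 against 1.85, 3.06 and 1.01 in KEAP1null-KYSE450. Every edited library was at or under the limit, and the gene reached the mean needed for testing only through KYSE450. No fold or p-value is therefore given for it. VWF did not pass (log2 difference 0.25, limma adjusted p = 0.54). The part of these markers in the results was not tested.

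MT2A carried most of the metallothionein RNA in both lines and was lower in the edited one. MT1X and SLC30A1 were lower as well, while MTF1 and MT1F did not pass the test. Differences between these genes in the size of the change were not tested. MT1A, MT1E, MT1G and MT1M were at or near 0. Differences below are KEAP1null-KYSE450 minus KYSE450 on the scale of log2(normalized count + 1), tested with limma over the 16701 genes that averaged at least 10. Of the 9 genes, 5 were tested.

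MT2A (ENSG00000125148, chr16:56608584-56609497, + strand) encodes an isoform that is usually the most abundant metallothionein of human cells. Its normalized counts were 11226, 10340 and 10540 in KYSE450 and 6533, 6778 and 7596 in KEAP1null-KYSE450. The libraries of the lines did not overlap, and the lowest parental library stood well above the highest edited one. The means of 10702 ± 465 and 6969 ± 556 (SD, n = 3 each) gave a log2 difference of -0.62 (SE 0.09, 95% interval -0.82 to -0.42, limma adjusted p = 1.6e-04), or a level 35.0% lower. By mean count MT2A ranked 1173 among the genes tested. Of the 50-base windows in its annotated transcripts, 4.48% also occur in other genes, MT1X and MT1G among them. Over 15 alternatives the difference ran from -0.70 to -0.43, with a highest adjusted p of 0.0056.

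MT1X (ENSG00000187193, chr16:56682470-56684196, + strand), a broadly expressed MT1 isoform, was read at 1033, 1249 and 1005 in KYSE450 and 578, 724 and 792 in KEAP1null-KYSE450. Again no parental library fell within the edited range. The log2 difference was -0.66 (SE 0.14, 95% interval -0.96 to -0.35, limma adjusted p = 0.0021), a level 36.5% lower. Its interval holds the whole interval of MT2A. Of the 50-base windows in MT1X transcripts, 18.7% also occur in other genes, and its exons overlap an unnamed gene on the same strand (ENSG00000259827). Reads from such stretches could have been split or dropped by the counting. The shares given here for each gene pool the windows of all its annotated transcripts. The share within the spliced message alone was not measured and may be larger.

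MT1F (ENSG00000198417, chr16:56657731-56660698, + strand), another MT1 isoform, had normalized counts of 172, 164 and 172 in KYSE450 and 172, 254 and 206 in KEAP1null-KYSE450. The ranges met at their edges: the lowest edited library matched the parental ones, while the other two lay above. Its log2 difference of 0.29 (SE 0.19, 95% interval -0.12 to 0.70) did not pass (limma adjusted p = 0.21). The interval excludes a fall of the size fitted for MT2A. Over 15 alternatives the value ran from 0.06 (quantile normalization) to 0.43, and was 0.15 without KEAP1null-KYSE450 library 2. Of its windows, pooled over all annotated transcripts, 1.24% are shared with other genes.

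The remaining MT1 genes were hardly detected. MT1A (ENSG00000205362) was at 1.07, 1.01 and 2.80 in KYSE450 and 0.92, 0 and 4.04 in KEAP1null-KYSE450, with a single library above the value of 3 reads. MT1E (ENSG00000169715), MT1G (ENSG00000125144) and MT1M (ENSG00000205364) were at 0 in all 6 libraries, each of which allows up to 2.77 to 3.21 normalized counts. No fold is given for these 4 genes. Between 5.76% (MT1A) and 18.2% (MT1M) of their 50-base windows, pooled over all annotated transcripts, are shared. The other windows are unique to their gene at this length.

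SLC30A1 (ENSG00000170385, chr1:211571568-211579161, - strand) exports zinc across the plasma membrane and is a target of MTF1. Libraries of KYSE450 gave 1725, 1521 and 1682 normalized counts, and those of KEAP1null-KYSE450 gave 1276, 1174 and 1175. All parental libraries were higher than all edited ones. The log2 difference was -0.44 (SE 0.10, 95% interval -0.67 to -0.22, limma adjusted p = 0.0036), a level 26.4% lower. None of its windows is shared with another gene. The highest adjusted p over 15 alternatives was 0.046, from edgeR on 4 libraries.

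MTF1 (ENSG00000188786, chr1:37809574-37859592, - strand), the transcription factor itself, was at 1236, 1000 and 989 in KYSE450 and 992, 1014 and 901 in KEAP1null-KYSE450. Apart from the high first parental library, the values of both lines intermingled. The log2 difference was -0.14 (SE 0.12, 95% interval -0.41 to 0.12, limma adjusted p = 0.35).

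**Figure D1:**
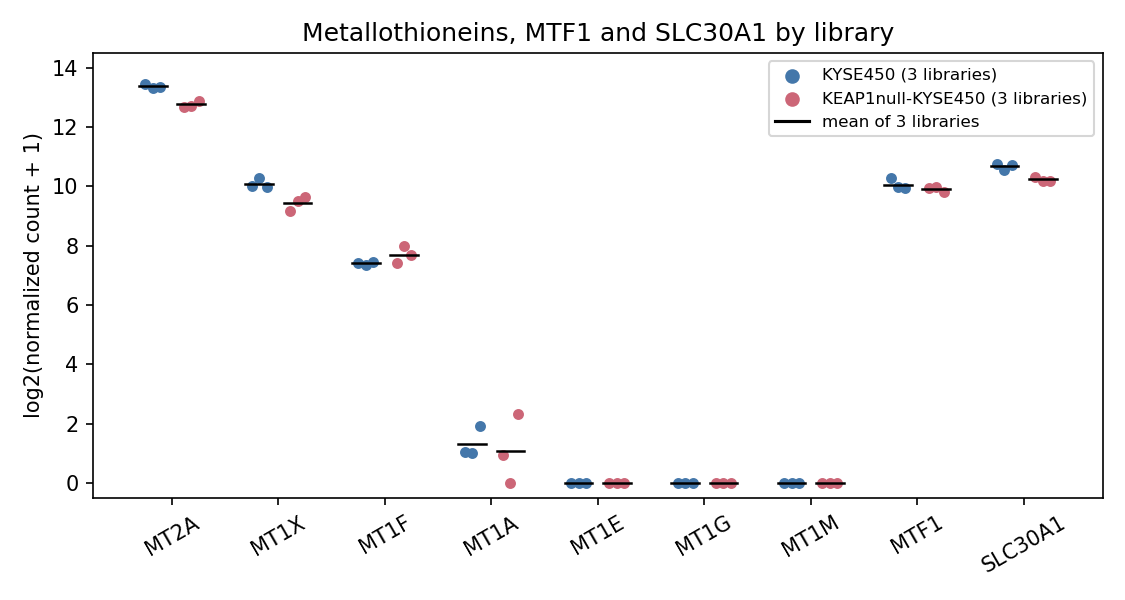
Each point is 1 library (3 of KYSE450 in blue, 3 of KEAP1null-KYSE450 in red) and each line the mean of 3, on the axis of log2(normalized count + 1). MT2A, MT1X and SLC30A1 separate by line, MTF1 and MT1F overlap, and MT1E, MT1G and MT1M lie at 0.

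Counted as a set, 0 of the 5 tested genes were called at the thresholds of the study (adjusted p under 0.05 and a log2 difference of at least 1), beside 18.2% of all genes tested. At the adjusted p alone, 3 were lower, 0 higher and 2 did not pass, where 25.5% of all genes were lower and 24.3% higher. The 3 lower genes were also those whose libraries did not overlap, as seen downward in 29.3% of all genes. The median difference was -0.44 over the 5 genes and 0.00 over all genes tested. All 5 averaged at least 100, and over genes of that mean the median was -0.08. With that minimum 1558 genes were called (875 higher, 683 lower), against 3044 over all genes tested. The 18.2% thus includes many calls among genes of lower mean than these 5. As 49.8% of all genes passed between these lines, a passing gene is not unusual here. In bulk RNA, fewer cells making a transcript and less transcript per cell cannot be told apart.

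Per kilobase of merged exon, the order of levels in KYSE450 was MT2A (11709 normalized counts per kb), MT1X (635), SLC30A1 (279), MTF1 (135) and MT1F (91.5). In KEAP1null-KYSE450 the same scale gave 7625, 404, 205, 121 and 114. In the edited line the libraries of MTF1 and MT1F overlapped on this scale, while in KYSE450 they did not. The libraries of the first 3 genes did not overlap with a neighbour in either line. Merged exons pool all annotated transcripts of a gene. Those of MT2A (914 bases) and MT1X (1727 bases) fill the whole gene span, so that introns are counted in. MT1F was divided by 1852 bases. Per kb of spliced message the levels of these metallothioneins may be higher. The place of MT1F in the order, and its overlap with MTF1, rest on the lengths used.

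The 7 metallothionein genes were also summed within each library. The sum was 12432, 11754 and 11721 normalized counts in KYSE450 and 7283, 7756 and 8597 in KEAP1null-KYSE450, with no overlap. The means were 11969 ± 402 and 7879 ± 666 (SD, n = 3 each). MT2A made up 89.4% ± 1.25 of the sum in KYSE450 and 88.5% ± 1.16 in KEAP1null-KYSE450 (SD, n = 3 each), so that the sum is largely a reading of this gene.

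MT1F was a small part of the sum in both lines. Relative to MT2A in the same library, MT1F stood at 1.53%, 1.58% and 1.64% in KYSE450 and at 2.63%, 3.74% and 2.71% in KEAP1null-KYSE450. Every edited library was above every parental one. MT1X relative to MT2A was 9.20%, 12.1% and 9.54% against 8.84%, 10.7% and 10.4%, and here the lines overlapped. The MT1F ratio combines the lower MT2A with an MT1F that did not pass, so it is no separate result. Both ratios were looked at after the levels were known and were not tested.

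**Figure D2:**
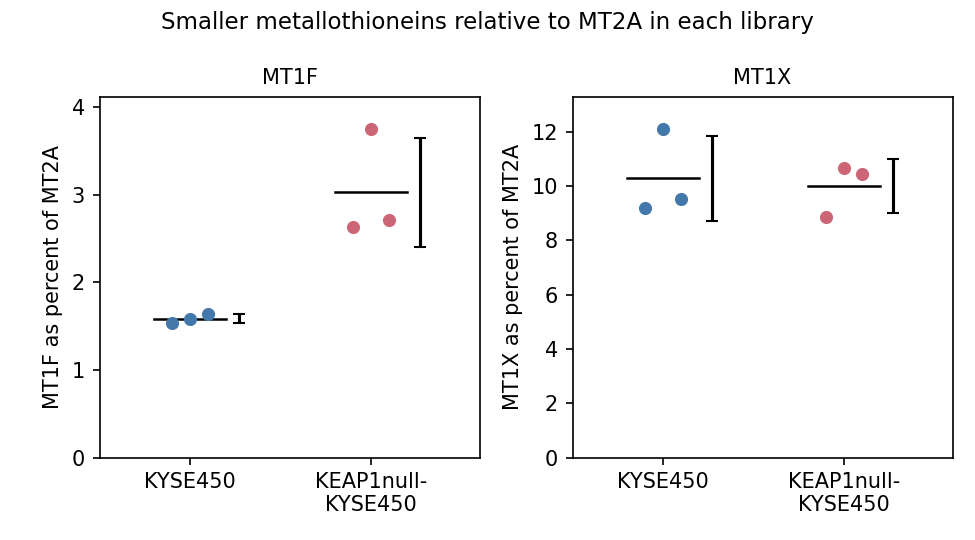
Normalized counts of MT1F (left) and MT1X (right) as percent of MT2A in the same library, with the mean (line) and SD (bar) of 3 libraries per line, both axes starting at 0. The MT1F ratio was 1.58% ± 0.0513 in KYSE450 and 3.03% ± 0.623 in KEAP1null-KYSE450, while the MT1X ratio overlapped.

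On chromosome 16 the expressed and the silent genes alternate within a short stretch. Counted from the start of MT2A, MT1E begins 16.9 kb downstream, MT1M 24.1 kb, MT1A 30.1 kb, MT1F 49.1 kb, MT1G 59.5 kb, MT1H 61.2 kb and MT1X 73.9 kb. Thus MT1F and MT1X, which were read in every library, flank MT1G, which was at 0. MT1H, with its 8 MRE cores, was at 2.14, 1.01 and 1.86 in KYSE450 and 0.92, 0 and 0 in KEAP1null-KYSE450, all under the value of 3 reads. Of 11 other metallothionein genes and pseudogenes listed, 10 had a row, 0 were tested and 6 were at 0 in all libraries (MT1B, MT1HL1, MT1JP, MT1DP, MT1CP and MT4). MT3, the brain-type isoform, reached 9.17 in KEAP1null-KYSE450 library 2 and 2.02 or less in the others.

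Most genes around the cluster lay above 0. Within 1 Mb of MT2A, 18 tested genes outside the family with a mean of at least 100 had a median log2 difference of 0.18, and 6 of them lay below 0. Around SLC30A1, 11 such genes had a median of -0.10 with 7 below 0, and around MTF1 the 14 genes had a median of -0.04 with 8 below 0. Over all 12318 genes of that mean, 56.6% lay below 0 with a median of -0.08.

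**Figure D3:**
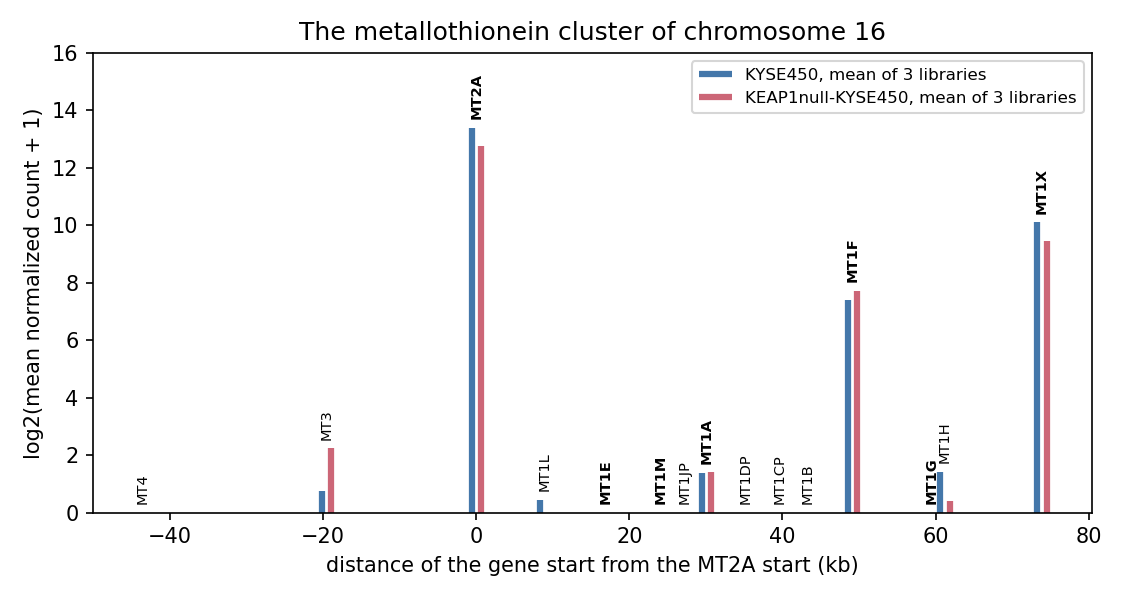
Mean of 3 libraries per line as log2(mean normalized count + 1) against the distance of each gene start from the MT2A start in kb, with the 7 studied metallothioneins in bold. MT2A and MT1X are lower in KEAP1null-KYSE450, MT1F is not, and the genes between them are at or near 0 in both lines.

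Zinc exporters of the SLC30A family, which move zinc out of the cytosol into organelles, vesicles or the medium, split into a single strong rise and little else. Besides SLC30A1, 9 were listed and 6 tested, with 1 called higher and 0 lower at both thresholds (all genes: 12.2% higher, 5.98% lower). SLC30A3, which loads zinc into vesicles, had 339, 254 and 228 normalized counts in KYSE450 and 916, 699 and 727 in KEAP1null-KYSE450. Its log2 difference was 1.52 (SE 0.17, limma adjusted p = 1.6e-05), and it ran from 1.40 to 1.68 over the alternatives. The lowest edited library was thus above the highest parental one. The exons of SLC30A3 overlap DNAJC5G on the opposite strand, and whether the counting used strand is not stated. SLC30A7, a zinc transporter of the Golgi, was lower at -0.29 on the log2 scale (limma adjusted p = 0.032). It no longer passed in 8 of 15 alternatives, among them leaving out library 2 or 3 of either line, with an adjusted p of up to 0.27. The values of SLC30A4 (0.35), SLC30A5 (-0.06), SLC30A6 (-0.11) and SLC30A9 (-0.09) did not pass, and the sign of the last 3 turned under at least 1 alternative. SLC30A2, SLC30A8 and SLC30A10 were too low to test. The median over the 6 tested exporters was -0.07.

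Of the SLC39A family, which brings zinc into the cytosol, 14 were listed, 11 tested, 2 called lower and 0 called higher at both thresholds (all genes: 5.98% lower, 12.2% higher). At the adjusted p alone 6 were lower, 2 higher and 3 did not pass (all genes: 25.5% lower, 24.3% higher), with a median log2 difference of -0.38. SLC39A7, which releases zinc from the endoplasmic reticulum and Golgi, had 10867, 8510 and 7202 normalized counts in KYSE450 and 4756, 3069 and 3168 in KEAP1null-KYSE450. The lines were far apart, at a log2 difference of -1.28 (SE 0.17, limma adjusted p = 6.5e-05), which ran from -1.49 to -1.12 over the alternatives. SLC39A1, a zinc importer of the plasma membrane, was low throughout, at 88.8, 92.0 and 97.0 against 48.9, 59.1 and 28.2. Its difference of -1.07 (SE 0.30, limma adjusted p = 0.010) lost its call with edgeR and with DESeq2, where the adjusted p reached 0.18, and stood at -0.77 (adjusted p = 0.044) without KEAP1null-KYSE450 library 3.

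SLC39A14, an importer of zinc and iron, had 5243, 4865 and 5175 normalized counts in KYSE450 and 3744, 2482 and 2728 in KEAP1null-KYSE450, a log2 difference of -0.79 (limma adjusted p = 3.7e-04). SLC39A10 (-0.62, limma adjusted p = 5.5e-04) and SLC39A6 (-0.60, limma adjusted p = 0.0029), which are close relatives and act at the plasma membrane, were lower as well. SLC39A3 was lower at -0.38 (limma adjusted p = 0.025) and no longer passed in 7 of 15 alternatives, among them leaving out KYSE450 library 1 or 2 or KEAP1null-KYSE450 library 2 or 3 (adjusted p up to 0.19). In the other direction, SLC39A11 was higher by 0.46 (limma adjusted p = 0.013) and SLC39A8, which also carries manganese, by 0.31 (limma adjusted p = 0.034). The first no longer passed in 1 alternative (no trend, adjusted p = 0.071) and the second in 8, which include leaving out KYSE450 library 2 or 3 or any KEAP1null-KYSE450 library (adjusted p up to 0.13). SLC39A4 (0.02), SLC39A9 (0.06) and SLC39A13 (-0.13) did not pass, and the sign of the first 2 turned under at least 1 alternative.

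Chromosomal neighbours of several importers lay below 0 more often than the 56.6% of all genes, whether or not the importer itself passed. Around SLC39A7, 23 of 23 neighbours within 1 Mb were below 0 (median -0.64), and around SLC39A1 28 of 31 (median -0.58). For SLC39A14, 18 of 23 were below 0 (median -0.42), and for SLC39A3 29 of 38 (median -0.30). SLC39A13, which did not pass, had 20 of 24 below 0 (median -0.36). Around SLC39A6, which was lower, the 16 neighbours had a median of -0.04 with 10 below 0. The other tested importers did not share the pattern or had few neighbours. Below 0 were 31 of 55 around SLC39A4, 4 of 10 around SLC39A9 and 2 of 9 around SLC39A8. For SLC39A11 it was 3 of 5, and for SLC39A10, which was lower, 1 of 2. The exons of SLC39A7 overlap RXRB and those of SLC39A1 overlap CREB3L4, both on the opposite strand, and whether the counting used strand is not stated in the sources used here. SLC39A2, SLC39A5 and SLC39A12 were too low to test, although SLC39A12 was at 3.69, 12.2 and 8.07 in KEAP1null-KYSE450 and at 0 in every parental library.

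**Figure D4:**
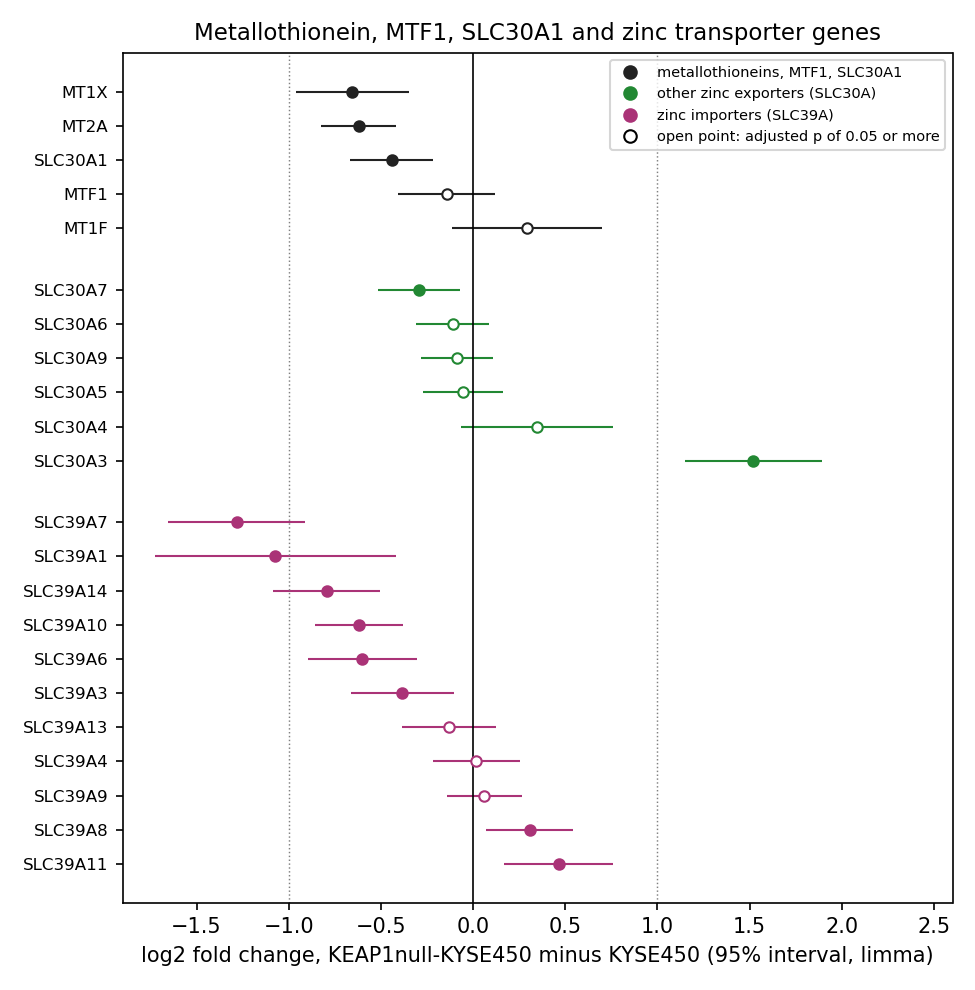
Log2 difference (KEAP1null-KYSE450 minus KYSE450) with its 95% limma interval for the 5 tested genes of the set, 6 other zinc exporters and 11 zinc importers; open points did not reach an adjusted p under 0.05 and dotted lines mark a difference of 1. MT1X, MT2A and SLC30A1 lie left of 0, SLC30A3 stands apart on the right, and SLC39A7 and SLC39A1 lie furthest left.

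Glucocorticoids induce metallothionein genes besides metals, and the receptor with its classical targets was therefore read beside them. Of 10 such genes, 9 were tested and 0 called at both thresholds (all genes: 18.2%). At the adjusted p alone 5 were lower and 2 higher (all genes: 25.5% and 24.3%), with a median of -0.60. TSC22D3, an anti-inflammatory leucine zipper protein, had 567, 653 and 576 normalized counts in KYSE450 and 340, 278 and 332 in KEAP1null-KYSE450. FKBP5, a chaperone of the receptor, averaged 1313 ± 148 and 791 ± 60.1 (SD, n = 3 each). Neither gene overlapped between the lines, with log2 differences of -0.92 (limma adjusted p = 1.8e-04) and -0.73 (limma adjusted p = 3.2e-04). PER1 (-0.97, limma adjusted p = 0.0022) and ERRFI1 (-0.73, limma adjusted p = 3.4e-05) were lower too. NR3C1, the receptor, was lower at -0.40 (limma adjusted p = 0.0033), which was lost under quantile normalization, edgeR and DESeq2. KLF9 (0.35, limma adjusted p = 0.027) and CRISPLD2 (0.56, limma adjusted p = 0.0087) were higher. KLF9 no longer passed in 6 alternatives, among them leaving out KYSE450 library 2 or 3 or KEAP1null-KYSE450 library 1 or 3 (adjusted p up to 0.20), and CRISPLD2 in 1, DESeq2 (0.074). SGK1 (-0.08) and DUSP1 (-0.60, limma adjusted p = 0.067) did not pass, and ZBTB16 was at 0. DUSP1 passed in 4 of 15 alternatives, at -0.86 (adjusted p = 0.022) under quantile normalization, -0.94 (0.017) with edgeR, -0.97 (0.015) with DESeq2 and -0.90 (0.0086) without KEAP1null-KYSE450 library 3, and stood at -0.37 without KEAP1null-KYSE450 library 2. Neither zinc nor hormone in the medium was measured in these data.

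Among 12329 genes with a mean of at least 100, those whose 6 values lay nearest to MT2A were RNF126, PEX16, MUM1, RIPK2 and TLR2. Likeness was the Euclidean distance between profiles on the log2 scale, each centred on its own mean, and ran from 0.11 to 0.13 over these 5. RNF126 is a ubiquitin ligase and PEX16 a peroxisome assembly factor, while RIPK2 and TLR2 act in innate immune signalling. Each had a log2 difference between -0.69 and -0.55, against -0.62 for MT2A. This closeness follows from how the 5 genes were chosen and is no separate result. None of the studied metallothionein, MTF1 or SLC30A1 genes could enter this ranking by design.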

How the data were processed

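RNA-seq was performed on 3 libraries each of KYSE450 and KEAP1null-KYSE450. The deposited matrix holds normalized counts per gene (58884 rows, 273 without a symbol), a signal scale in which the authors divided read counts by a factor per library. The labels and methods name FastQC 0.11.5, cutadapt 1.12, STAR 2.6.90c, featureCounts 1.5.1, hg38 with RefSeq annotation (the labels also list mm10), and DESeq2 for testing, while the rows carry Ensembl identifiers. The strand setting and the handling of reads that map to several genes are not given in the sources used here. Columns were matched to a line by name and carry no replicate number. Whole reads were taken from 4 libraries (53027359 to 61543442 per library, 100% of values within 0.1 of a whole number). KYSE450 library 2 and KEAP1null-KYSE450 library 3 were left out of the count tests, which does not mean that they lack whole reads. The edgeR and DESeq2 fits therefore used fewer libraries than limma. A gene that no longer passed there may reflect this smaller number, which was not tested.

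From these values, log2(normalized count + 1) was fitted with limma 3.58.1 (R 4.3.3, two-sided, empirical Bayes with trend) over the 16701 genes that averaged at least 10, with Benjamini-Hochberg adjustment over all of them. Calls needed an absolute log2 difference of at least 1 besides an adjusted p under 0.05. Alternatives were quantile normalization, equal library totals, pseudocounts of 0.1 and 10, no trend, no filter or a minimum mean of 100, each library left out, no fold cutoff, and edgeR 4.0.16 and DESeq2 1.42.0 on the whole reads of the 4 libraries. In simulated data with 200 genes changed by a log2 size of 2, limma recovered 194 with 3 false calls, edgeR 196 with 1 and DESeq2 177 with 0. Every gene had the same dispersion, and limma was given 6 libraries but edgeR and DESeq2 only 4. Recovery of changes as small as those of the genes studied was not tested.

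The genes studied and the lists (other metallothioneins, zinc exporters and importers, copper handling, glucocorticoid targets, markers of squamous epithelium, fibroblasts, leukocytes and endothelium) were chosen with earlier results of these data known. Named were all 9 genes, KEAP1, the tested zinc transporters, called genes of the other lists, and the 5 genes nearest to MT2A; further list genes were named after their values were seen. Gene positions, exon lengths and transcript windows came from GENCODE 44 and promoters from RefSeq (GRCh38.p14). Neighbours were tested genes with a mean of at least 100 within 1 Mb, metallothioneins left out.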

Additional observations from a re-analysis of the deposited data

How the results depend on the processing

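All 5 tested genes kept their direction and their side of the adjusted p threshold in 15 alternatives each. Over all genes, 3044 were called (2045 higher, 999 lower, 67.2% higher), 1558 with a mean of at least 100, 8311 with no fold cutoff and 2677 under quantile normalization, where the split was 1388 higher and 1289 lower (51.8% higher). Leaving out a library gave 2676 to 3076. With no fold cutoff the studied genes rose from 0 to 3 calls, zinc exporters from 1 to 2, zinc importers from 2 to 8, copper handling from 2 to 6 and glucocorticoid genes from 0 to 7. Zinc importers had 3 calls with no filter (2 lower and 1 higher, SLC39A12), 1 with a pseudocount of 10, a mean of at least 100, edgeR or DESeq2, and 1 to 2 when a library was left out, with 1 without KEAP1null-KYSE450 library 3. Copper handling had 0 calls under quantile normalization, edgeR and DESeq2, and 1 to 2 with a library left out (1 without KYSE450 library 1 and without KEAP1null-KYSE450 library 2 or 3). Glucocorticoid genes had 2 under quantile normalization and 0 to 1 with a library left out, with 1 without KYSE450 library 3 and without KEAP1null-KYSE450 library 1 or 2. KEAP1 turned from -0.02 to 0.016 when rescaled to the same total and to 0.14 under quantile normalization, and ran from -0.072 to 0.040 with a library left out (0.034 without KYSE450 library 1, 0.040 without KEAP1null-KYSE450 library 2). The causes were not tested. No paired analysis was possible because the columns carry no replicate number. At this depth genes at 0 are limited to about 3 normalized counts.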

Other observations

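Metallothioneins bind copper as well as zinc, and genes of copper handling were read in the same fit. Of 14 listed, 13 were tested, 2 were called lower and 0 higher at both thresholds (all genes: 5.98% and 12.2%), and the median log2 difference was -0.02. STEAP2 and STEAP3, metalloreductases that reduce copper and iron, averaged 2325 ± 53.3 and 2112 ± 263 normalized counts in KYSE450 and 1142 ± 173 and 1031 ± 211 in KEAP1null-KYSE450 (SD, n = 3 each). Their log2 differences were -1.04 (limma adjusted p = 1.7e-05) and -1.05 (limma adjusted p = 8.9e-05). The adjusted p stayed under the threshold in all 15 alternatives for both, while the size fell short of 1 in 4 and 5 of them. Without KEAP1null-KYSE450 library 2 STEAP2 stood at -0.94, and STEAP3 stood at -0.95 without KYSE450 library 1 and at -0.91 without KEAP1null-KYSE450 library 3.

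At the adjusted p alone, 3 were lower and 3 higher (all genes: 25.5% and 24.3%). ATP7A, the copper-exporting ATPase, was higher by 0.65 (limma adjusted p = 0.0051), CCS, which delivers copper to superoxide dismutase, by 0.53 (limma adjusted p = 0.0034) and COMMD1 by 0.46 (limma adjusted p = 0.022). COX17, which delivers copper to cytochrome oxidase, was lower at -0.51 (limma adjusted p = 0.012). CCS no longer passed with edgeR and DESeq2, and COMMD1 did not in 6 alternatives, among them leaving out KYSE450 library 1 or KEAP1null-KYSE450 library 2 or 3 (adjusted p up to 0.11). COX17 did not pass in 3, among them leaving out KEAP1null-KYSE450 library 1 (adjusted p up to 0.070). SLC31A1, the main copper importer, stood at 0.11 (limma adjusted p = 0.39) and passed under quantile normalization alone (0.28, adjusted p = 0.033). The exons of ATP7A overlap those of PGK1 on the same strand in the annotation used here.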
